A study of Homo sapiens with 42 samples.

Results

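Untreated KG-1 cells were set against 4 other untreated lines of acute myeloid leukaemia, gene by gene. The members were the 3 KG-1 libraries that had received only the solvent DMSO, out of 42 labelled libraries, and they were chosen by their labels. They were compared with 12 DMSO libraries, 3 each of OCI-AML3, SKM-1, MOLM-13 and MOLM-14. No library of these 15 had received decitabine, the cytidine analogue that the study tested. Cells were seeded at 100000 per mL, and total RNA was taken at 72 hours and sequenced after removal of ribosomal RNA with a stranded kit and single-end reads of 50 bp. The labels call the libraries replicates without saying that they came from separate cultures, so the p-values describe the spread among libraries of a line, some of which may be technical. The matching decitabine libraries of the same 5 lines, treated with 100 nM on day 0, day 1 and day 2, served as a second set of libraries.

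Each group was 1 established cell line, so a difference between KG-1 and the others is a difference between leukaemias of different patients, with no replication over patients. KG-1 is a CD34-positive line of early myeloid cells that carries a fusion of FGFR1OP2 with the receptor tyrosine kinase gene FGFR1. MOLM-13 and MOLM-14 are sister lines from 1 patient, with a KMT2A-MLLT3 fusion and an internal tandem duplication of FLT3. OCI-AML3 has a mutant NPM1 and a mutant DNMT3A. SKM-1 came from a leukaemia that followed a myelodysplastic syndrome. In normal marrow, CD34-positive progenitors use a set of transcription factors that includes GATA2 and ERG, and they carry MHC class II on their surface. As cells commit to the monocyte and granulocyte fates they switch on CEBPA, IRF8 and then granule proteases and lysozyme.

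The values were the authors' normalised counts, called normalised values here, which are not divided by gene length. Levels are therefore compared between libraries and not between genes. Depth was estimated from the step between low values, at 2.97 M to 31.2 M reads in the KG-1 libraries and at 2.02 M to 75 M in the other lines. Replicate 2 was shallow in 3 lines, with 2.97 M reads in KG-1, 2.02 M in MOLM-14 and 2.67 M in OCI-AML3. In that KG-1 library 1 read was worth a normalised value of about 6.64, so a value of 0 there does not tell apart levels below it. Mitochondrial genes took 10.4 to 12.1% of the KG-1 totals and 8.06 to 15.1% of the other totals.

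Tests were run with limma on log2(value + 1) over the 20217 genes that reached a value of 10 in at least 3 of the 15 libraries. The log2 difference is KG-1 minus the mean of the 4 other line means, and it understates the fold of low genes. Genes with a Benjamini-Hochberg adjusted p under 0.05 were called. A gene was said to be set apart when it was called in the same direction against that mean and against each of the 4 lines by itself. Of all genes tested, 5385 (26.6%) were called higher and 5331 (26.4%) lower. A total of 1420 genes (7.02%) were set apart higher in KG-1 and 1471 (7.28%) were set apart lower, and counts within a gene list are to be read against these shares. All 3 KG-1 libraries lay above all 12 others at 1951 genes (9.65%) and below them at 1534 (7.59%). The median log2 difference over all genes was 0.0201, and its 10th and 90th percentiles were -1.75 and 1.8.

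KG-1 was not the only line with its own profile. Taken against the other 4 lines in the same way, SKM-1 had 1655 genes set apart higher and 1140 lower. OCI-AML3 had 1028 and 1062, and the sister lines MOLM-13 and MOLM-14 had 811 and 854 and 661 and 653. Across genes, the line means of KG-1 correlated with those of MOLM-14 at r = 0.830, OCI-AML3 at 0.820, MOLM-13 at 0.809 and SKM-1 at 0.797, as a description over 20217 genes that are not independent. The sister lines correlated at 0.900.

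**Figure D1:**
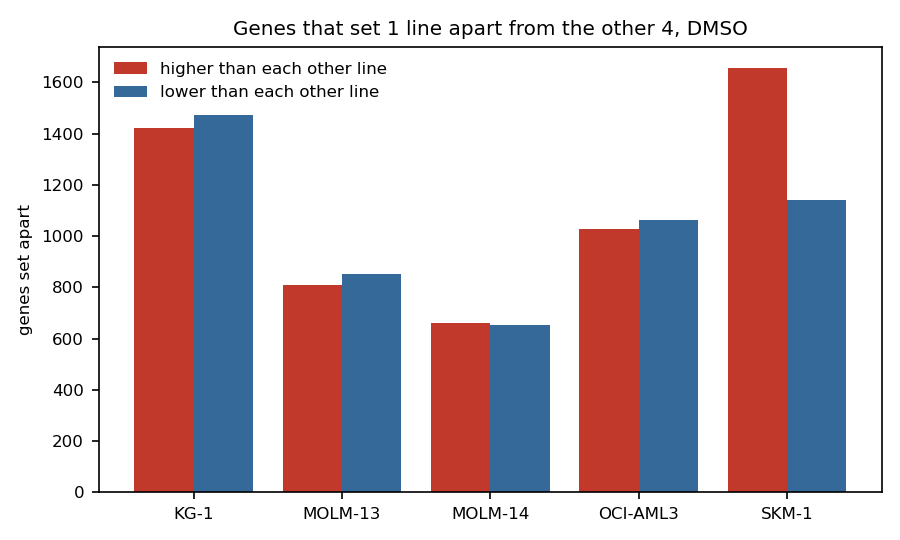
Number of genes set apart higher and lower in each line against the other 4 lines, DMSO libraries only (3 per line). KG-1 had 1420 genes set apart higher and 1471 lower, and SKM-1 had 1655 and 1140.

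The filter let genes pass through KG-1 alone. Under 3 of the 12 other libraries reached a value of 10 at 893 of the tested genes, of which 346 were set apart higher. No KG-1 library reached 10 at 2500 genes, of which 284 were set apart lower. The labels name no sequencing batch, but KG-1 shares its range of depth and its shallow second replicate with MOLM-14 and OCI-AML3, while the MOLM-13 and SKM-1 libraries held 55.5 M to 75 M reads. Against MOLM-14 and OCI-AML3 only, 4947 genes were called higher and 4869 lower. Against MOLM-13 and SKM-1 only, the counts were 5681 and 5633.

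Among genes high in KG-1, faint values in the other lines followed the same division. At 558 genes set apart higher with a KG-1 mean of at least 1000, the MOLM-13 mean lay below 0.05% of the KG-1 mean at 27 genes and the SKM-1 mean at 15. In MOLM-14 and OCI-AML3 this happened at 0 genes, and their lowest means were 0.0603% and 0.0614% of that in KG-1. Whether reads carried over between libraries contributed to such faint values was not tested.

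The protein-coding gene that stood highest in KG-1 was HPGDS, the haematopoietic prostaglandin D synthase of mast cells and megakaryocytes (chr4:94298535-94342876 in hg38, from the GENCODE 29 annotation, as are the other gene positions). It had 3190, 3913 and 3141 in KG-1, against 0 to 9.28 in the other 12 libraries. CD34, the sialomucin that marks stem and progenitor cells (chr1:207880972-207911402), had 27558, 28785 and 31071 in KG-1, against 1.90 to 128 with a median of 15.2. The log2 difference was 10.73 (SE 0.67) for HPGDS and 10.68 (SE 0.42) for CD34, with limma adjusted p of 1.58e-08 and 1.94e-10. The CD34 values of the other lines were 27.5 to 128 in MOLM-14, 23.6 to 82.8 in OCI-AML3, 6.74 to 6.77 in SKM-1 and 1.90 to 5.004 in MOLM-13. Every KG-1 library was far above each of them.

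The rest of the 15 highest coding genes were a mixture with few shared functions. ABCB1, the drug efflux pump P-glycoprotein (chr7:87503633-87713323), had 2275, 1769 and 2210 in KG-1, against 0 to 8.28 (log2 difference 10.02, SE 0.64). PTPRCAP, a lymphoid protein bound to CD45, had 2080, 2496 and 1924, against 0 to 20.1. HEMGN, a nuclear protein of haematopoietic progenitors, had 1074, 1222 and 1110, against 0 to 5.35, and MMRN1, a platelet granule protein, had 2865, 2707 and 3011, against 0 to 25.0. All these genes were far above every other library. Neuronal and secretory genes stood beside them. The glutamate receptor partner NETO1 had 2659, 2490 and 2622 in KG-1, against 0 to 14.96. GFRA1, a receptor for the growth factor GDNF, had 5042, 5296 and 5565, against 0 to 25.9. The neuropeptide gene ADCYAP1, the sodium and calcium exchanger SLC8A3, the secretion GTPase RAB27B, the serotonin receptor HTR1F and the vesicle priming gene UNC13C had log2 differences of 9.91, 9.77, 9.59, 9.55 and 9.31. GPR174, a receptor of lymphocytes, and NYNRIN closed the set at 9.20 and 9.15. Each of the 15 was also set apart higher in the decitabine libraries.

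Among genes lower in KG-1, SLC7A2, a transporter of cationic amino acids (chr8:17497088-17570573), had 2.78, 0 and 3.88 in KG-1, against 332 to 3105 with a median of 2646 (log2 difference -9.26, SE 0.32, limma adjusted p = 6.75e-11). ELANE, neutrophil elastase (chr19:851014-856247), had 13.8, 0 and 12.9 in KG-1, against 1072 to 3918 (-8.40, SE 0.58). Every KG-1 library lay below every other library at these genes. The heparan sulphate proteoglycan SDC2, the mitochondrial folate enzyme ALDH1L2, the neuronal gene SHTN1 and the protease inhibitor CSTA had log2 differences of -8.48, -8.46, -8.43 and -8.08. PTGFRN, ANKRD18B, HTATIP2, ANO5, UACA and C3orf80 lay between -7.91 and -7.43. CD70, the ligand of CD27 and a target of antibodies tried in leukaemia, had 3.71, 0 and 1.12 in KG-1, against 117 to 616 (-7.27, SE 0.30). EPB41L3, a membrane skeleton gene, had 7.22, 29.7 and 11.7, against 210 to 6413.

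Long noncoding genes reached the same sizes. FAM30A, a transcript known from CD34-positive cells (chr14:105917979-105932642), had 9080, 11359 and 6908 in KG-1, against 0 to 211 with a median of 6.13 (log2 difference 10.23, SE 0.56). AC084759.2 had 5513, 5052 and 4725, against 0 to 27.1. In the annotation it lies beside UNC13C on the opposite strand, and the starts of these genes face each other. The neighbours KIAA0087 and AC004947.1 on chromosome 7 were at 8.41 and 8.27, and AL157895.2 was at 8.54. On the low side, CRNDE had 6.75, 5.03 and 10.02 in KG-1, against 740 to 1010 (-6.78, SE 0.15). AP002761.4, TRHDE-AS1 and MIR646HG had -5.70, -5.59 and -2.65.

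Progenitor genes formed the list with the clearest lean to KG-1 among markers of cell types. Of 33 listed genes 28 were tested, 17 were set apart higher and 2 lower, against 7.02% and 7.28% of all genes, and the median log2 difference was 3.83. Of the 28, 5 passed the filter only through KG-1. GATA2, a transcription factor that stem cells need, had 8728, 10062 and 8667 in KG-1, against 35.4 to 1061 with a median of 113. The other line that used GATA2 was MOLM-13, with a log2 difference from KG-1 of 3.22, while the other 3 differed by 5.93 to 7.27. ERG, an ETS factor of stem cells, had 3595, 3779 and 3222 in KG-1, against 0 to 349, and the highest values were those of OCI-AML3. ANGPT1, a growth factor that stem cells secrete, had 2913, 3180 and 2806, against 2.76 to 106. HOPX, a homeodomain protein of quiescent stem cells, had 2676, 2210 and 3113, against 4.45 to 38.6. In each of these genes the KG-1 libraries did not overlap with any other. NRIP1, a nuclear receptor corepressor, had 18097, 19010 and 17157, against 42.2 to 4400.

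Further genes of the list followed at lower levels. SPINK2, a protease inhibitor of primitive progenitors, had 164, 155 and 188 in KG-1, against 0 to 6.99. MYCT1 had 239, 246 and 317, against 0 to 2.17, and the stem cell factor HLF had 52.7, 23.1 and 59.1, against 0 to 7.35. MN1, a cofactor in leukaemia, had 391.9, 324 and 320, against 0 to 25.6. The helix-loop-helix factors TAL1 and LYL1 had log2 differences of 5.13 and 2.20, and the RNA-binding protein MSI2 had 2.24. MECOM, the gene of EVI1, had 25509, 45740 and 37148 in KG-1, against 6396 to 25026, so that all 5 lines held it in quantity and the difference was 1.47 (SE 0.25). The markers PROM1 and BAALC were not tested, since their highest KG-1 values were 4.25 and 4.52.

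FLT3 and LMO2 ran the other way. FLT3, the cytokine receptor that carries the duplication in the MOLM lines, had 101.2, 105 and 122 in KG-1, against 340 to 11083 with a median of 4069 (log2 difference -4.53, SE 0.06, limma adjusted p = 2.35e-14). The difference was largest against MOLM-13, at -6.64, and smallest against SKM-1, at -1.70. LMO2, a partner of TAL1, had 755, 997 and 654 in KG-1, against 1052 to 3189. KIT, the receptor for stem cell factor, was called but not set apart, because SKM-1 stood above KG-1. It had 723, 496 and 543 in KG-1, against 0 to 14.5 in MOLM-13, MOLM-14 and OCI-AML3 and 2630 to 2733 in SKM-1. MEIS1, the partner of HOX proteins, had 3597, 4606 and 2804 in KG-1, against 1135 to 2959 in MOLM-13, MOLM-14 and OCI-AML3 and 3.83 to 11.3 in SKM-1. CD109 was likewise called and not set apart.

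**Figure D2:**
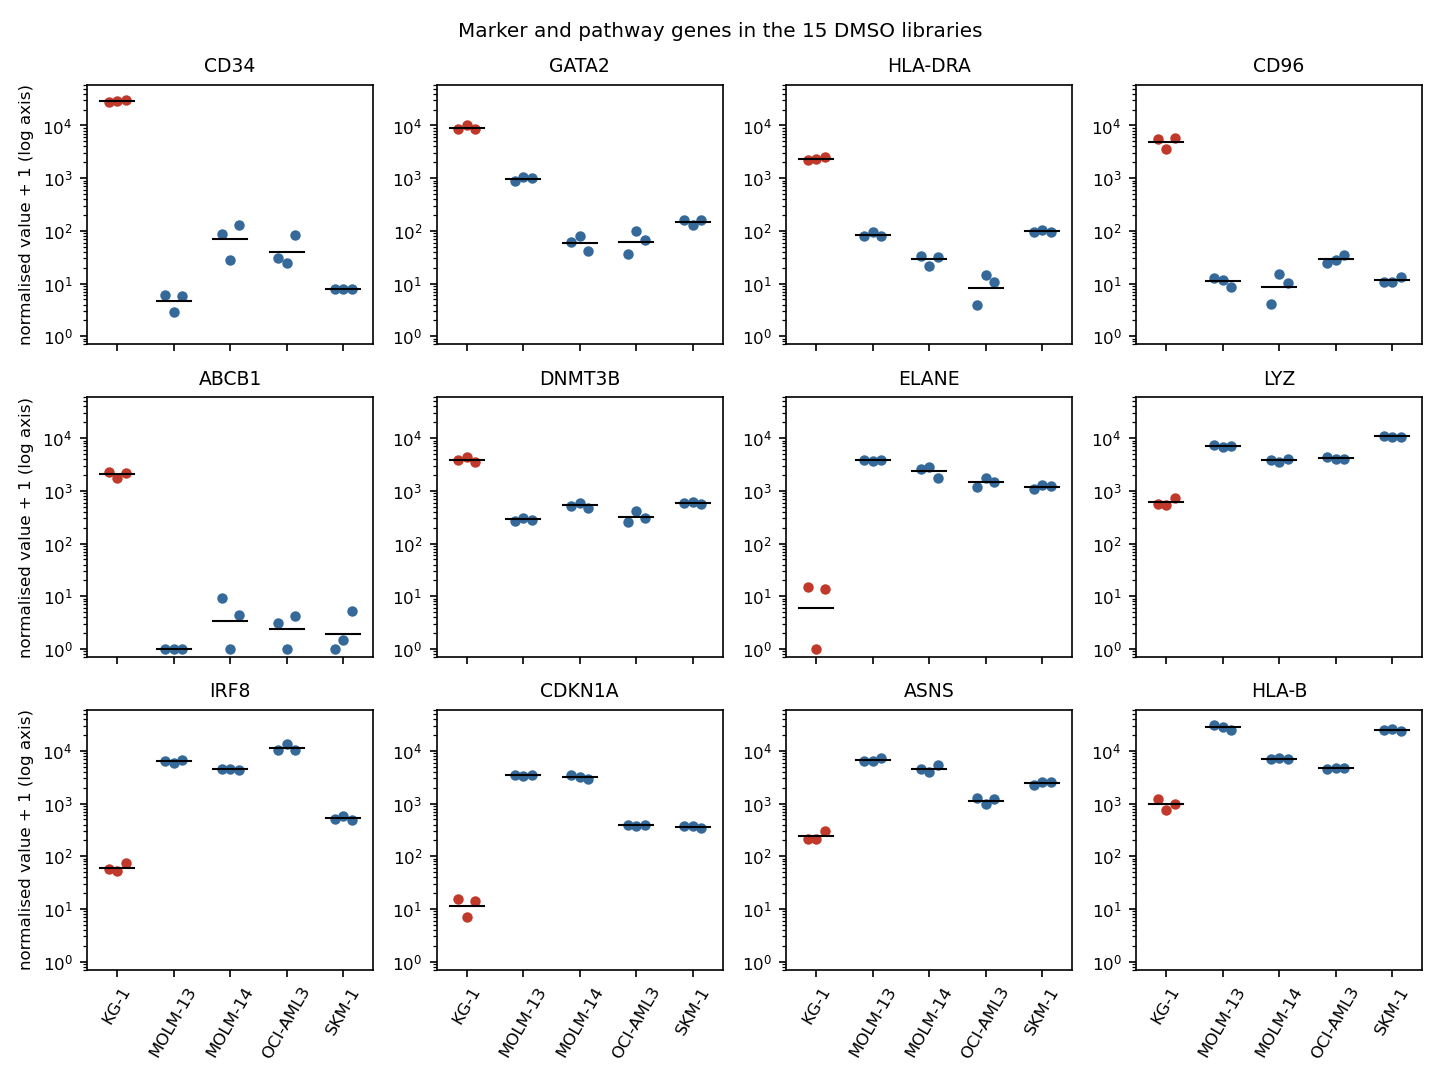
Normalised value + 1 on a log axis in each DMSO library for 12 genes, KG-1 first and then the other 4 lines; a point is a library and a bar is the geometric mean of value + 1 for the 3 libraries of a line. CD34 lay at 27558 to 31071 in KG-1, against at most 128 elsewhere, and CDKN1A at 6.15 to 14.5 in KG-1, against at least 344 elsewhere.

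The HOX genes did not set KG-1 apart. Of 20 tested members of the HOX list, MEIS1 and PBX3 included, 8 were called higher and 9 lower, 0 were set apart in either direction, and the median was -0.16. HOXA9, which is used in stem cells and in many leukaemias, had 2181, 1939 and 2345 in KG-1, against 997 to 2617. HOXB2 had 430, 511 and 390, against 0 to 203 with a median of 0.256. HOXA13 had 7.47, 12.4 and 11.6 in KG-1, against 2787 to 4195 in MOLM-14 and OCI-AML3, 0.264 to 0.595 in SKM-1 and 350 to 377 in MOLM-13.

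Some genes of mast cells and basophils were present in KG-1 at low to moderate values. Of 15 listed 11 were tested, 5 were set apart higher (7.02% of all genes) and 0 lower, with a median of 3.09. However, 6 of the 11 passed the filter only through KG-1. HPGDS, HDC, FCER1A and TPSB2, all set apart higher, were among these 6, so the count and the median say little of the list. HPGDS, given above, was the largest. CPA3, carboxypeptidase A of mast cell granules, had 1070, 966 and 1016 in KG-1, against 0 to 19.1 (log2 difference 8.25, SE 0.46). HDC, which makes histamine, had 81.5, 75.8 and 108, against 0 to 4.25, and FCER1A, a chain of the IgE receptor, had 112, 111 and 109, against 0 to 3.23. The tryptase gene TPSB2, which has a near-identical neighbour, had 17.1, 26.4 and 20.9, against 0 to 5.51. Other members of the list did not pass the filter. The tryptase gene TPSAB1 had 0, 0 and 1.78 in KG-1 and was listed at 0 elsewhere. ENPP3 had 6.54, 3.39 and 8.59, against 0 to 11.3, and CCR3 had 6.73, 6.83 and 17.5, against 0 to 15.2. Eosinophil genes did not join them. CLC had 5.01, 0 and 5.35 in KG-1, against 0 to 2780, and EPX had 0, 0 and 0.595, against 0 to 45.5.

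A like mixture held for the megakaryocyte and erythroid lists. Of 11 tested megakaryocyte genes 5 were set apart higher and 1 lower, against 7.02% and 7.28% of all genes, with a median of 0.97. VWF and SELP, 2 of the 5, passed the filter only through KG-1. ITGA2B, the platelet integrin CD41, had 1196, 1035 and 1085 in KG-1, against 2.45 to 27.5 (log2 difference 6.70, SE 0.30). GFI1B, a repressor of megakaryocyte and erythroid cells, had 668, 771 and 619, against 1.43 to 38.5, and the adhesion protein VWF had 284, 180 and 349, against 0 to 2.14. SELP was at 11.2, 68.6 and 10.6, against 0 to 0.419, and PLEK at 6756, 6699 and 7451, against 2558 to 5414. CD9 was lower, at 1.18, 0 and 1.42 against 10.2 to 148. The defining genes PF4 and GP9 were not tested: PF4 was listed at 0 in all 15 libraries, and GP9 reached at most 3.01 in KG-1 and 3.38 elsewhere.

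Of 9 tested erythroid genes 3 were set apart higher and 0 lower, against 7.02% and 7.28% of all genes. Of the 9, 2 passed the filter only through KG-1. TFRC, the transferrin receptor that dividing cells use too, had 14496, 14396 and 16843 in KG-1, against 2688 to 8073. GYPC had 2916, 3908 and 3452, against 214 to 872, and RHAG, an ammonium channel of red cells, had 299, 291 and 333, against 0 to 17.6. GATA1 reached at most 46.0 in KG-1 and 3.91 elsewhere and did not pass the filter. HBB was listed at 0 in all 15 libraries.

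Of the 28 tested genes of T and NK cells 12 were set apart higher and 2 lower, against 7.02% and 7.28% of all genes. The median was 2.00, but 11 of the 28 passed the filter only through KG-1, and among genes with a mean of at least 50 the median was -0.09. CD96, a receptor of T and NK cells that is also known from leukaemic stem cells, had 5508, 3574 and 5783 in KG-1, against 3.17 to 33.5 (log2 difference 8.51, SE 0.32). CD3E, a chain of the T cell receptor complex, had 189, 203 and 175, against 0 to 3.05. IL2RA, the interleukin 2 receptor alpha chain, had 561, 333 and 413, against 0 to 33.9, and PRF1, perforin, had 136, 79.9 and 175, against 0 to 17.5. ZAP70, LEF1, IL2RB, CD3D and TBX21 were set apart higher with KG-1 values of 13.0 to 112. TRBC2 had 132, 106 and 150 in KG-1 and was listed at 0 in the other 12 libraries. TRBC1, a near-identical copy, and KLRB1 were at 38.1, 46.5 and 20.8 and at 18.0, 26.5 and 17.8 in KG-1 and were also listed at 0 elsewhere.

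The lymphoid genes of KG-1 did not make up a T cell profile. TRAC had 2.00, 0 and 1.19 in KG-1, against 0 to 69.6, and CD2, CD5 and CD7 did not pass the filter, with highest KG-1 values of 9.01, 8.47 and 8.35. CD4, which monocytes also carry, had 12.5, 34.8 and 17.4, against 237 to 2265 (-5.57, SE 0.20). NCAM1, the gene of CD56, had 11.3, 5.99 and 22.1, against 329 to 6908 (-6.98, SE 0.26). Summed over the whole list, the T and NK genes held 7078 to 8964 in KG-1 and 3293 to 10710 elsewhere. Of 16 tested B cell genes 3 were set apart higher (7.02% of all genes) and 0 lower, with a median of -0.08. All 3 are among the 4 members that passed the filter only through KG-1, so their count says little of the list. IGHM, the constant region of the mu heavy chain, had 1378, 1556 and 1203 in KG-1, against 0 to 2.65 (9.72, SE 0.48). JCHAIN had 74.8, 53.2 and 71.2, against 0 to 1.86, and CD22 had 37.8, 65.8 and 21.99, against 0 to 8.63. PAX5, a factor of the B lineage, had 1.19, 0 and 2.82. FAM30A and IGHM both lie in the region of the heavy chain locus on chromosome 14. In bulk libraries, a small number of cells with much of a transcript cannot be told apart from many cells with little of it.

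Monocyte markers leaned the other way. Of 28 listed 25 were tested, 0 were set apart higher and 10 lower (7.28% of all genes), and the median was -2.38. LYZ, lysozyme, had 566, 540 and 725 in KG-1, against 3564 to 10941 (-3.28, SE 0.08). LILRB4, an inhibitory receptor of monocytes, had 2.93, 7.69 and 5.72, against 46.5 to 1262 (-6.04, SE 0.19). The Fc receptors FCGR1A and FCGR2A had 25.9 to 35.8 and 243 to 373 in KG-1, against 379 to 1325 and 1265 to 2717. CD68, a lysosomal protein of macrophages, had 44.8, 28.2 and 52.5, against 90.5 to 3913, and TLR2, a sensor of bacterial lipoproteins, had 12.8, 10.8 and 19.9, against 222 to 1168. KLF4, S100A8, CX3CR1 and MS4A6A completed the 10.

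Not every monocyte gene was low in KG-1. ITGAM, the integrin CD11b, was called higher, with 1580, 1677 and 1513 in KG-1, against 15.01 to 2177. CSF1R, the receptor for M-CSF, had 34.9, 111 and 11.7, against 49.6 to 2287, and S100A9 had 31.1, 79.6 and 34.5, against 29.1 to 7392. Both were called lower without being set apart, and both calls were lost against MOLM-14 and OCI-AML3 only, at adjusted p = 0.239 and 0.321 in limma. The S100A9 call was also lost against the lines other than SKM-1, with a log2 difference of -0.18 (limma adjusted p = 0.588). CD14 was near 0 in all 5 lines, with at most 3.58 in KG-1 and 5.36 elsewhere. The whole list summed to 3315 to 3484 in KG-1 and to 11550 to 38100 in the other libraries.

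Granule genes showed the same direction at a few members. Of 14 tested 4 were set apart lower (7.28% of all genes) and 0 higher (7.02%), with a median of -2.17. With ELANE, given above, the other genes of the azurophil granule cluster on chromosome 19 were low. AZU1 had 63.7, 37.4 and 77.6 in KG-1, against 1598 to 9168 (-6.36, SE 0.15), and PRTN3, proteinase 3, had 59.6, 59.8 and 52.4, against 954 to 16293 (-6.20, SE 0.18). GFI1, a transcriptional repressor that acts in granulocyte development, had 679, 760 and 691, against 1797 to 2960. MPO, myeloperoxidase, rested on 1 line. It had 193, 241 and 177 in KG-1, against 41435 to 42233 in SKM-1 and 13.7 to 611 in the other 3 lines. Its log2 difference of -1.65 (SE 0.61, limma adjusted p = 0.0348) became 0.36 against the lines other than SKM-1.

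Promoters of LILRB4 and PRTN3 are shown because both genes were far lower in KG-1 and both carry the letters GAGGAA, the core of sites bound by the myeloid ETS factor PU.1. The windows run from 250 bases before the transcription start to 50 after it, 5′ to 3′ on the strand of the gene, from RefSeq on GRCh38.p14, with the match in capitals.
LILRB4 (chr19:54662735-54663034, plus strand): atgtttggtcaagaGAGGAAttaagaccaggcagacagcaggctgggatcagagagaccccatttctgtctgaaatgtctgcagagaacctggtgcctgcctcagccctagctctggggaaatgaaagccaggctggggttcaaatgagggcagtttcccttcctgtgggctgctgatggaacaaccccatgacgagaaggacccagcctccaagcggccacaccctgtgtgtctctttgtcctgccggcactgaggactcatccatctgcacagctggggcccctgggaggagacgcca
PRTN3 (chr19:840749-841048, plus strand): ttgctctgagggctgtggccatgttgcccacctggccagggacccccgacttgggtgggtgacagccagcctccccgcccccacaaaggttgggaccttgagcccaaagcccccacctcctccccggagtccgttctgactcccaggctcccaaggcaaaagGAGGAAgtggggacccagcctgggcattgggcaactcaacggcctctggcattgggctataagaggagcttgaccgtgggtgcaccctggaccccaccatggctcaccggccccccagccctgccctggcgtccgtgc
On either strand, GAGGAA occurred in 17 of 23 promoters of listed monocyte genes (73.9%), in 7 of 15 of granulocyte genes (46.7%) and in 27.6% of all 27305 promoters. LILRB4 and PRTN3 were picked as examples. Of the genes set apart lower, FCGR1A, FCGR2A, CD68, KLF4, S100A8 and MS4A6A were also among those with a match. ELANE, AZU1, GFI1, LYZ, TLR2 and CX3CR1, set apart lower too, were not. ITGAM, called higher in KG-1, had a match. A match is a description of the letters and says nothing of binding. The gene of PU.1, SPI1, had 922, 1110 and 666 in KG-1, against 732 to 2182 (-0.63, SE 0.16), and was not set apart.

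Myeloid transcription factors split with these lists. Of 25 tested 4 were set apart higher and 7 lower, against 7.02% and 7.28% of all genes. IRF8, which directs monocytes and dendritic cells, had 55.4, 51.4 and 72.2 in KG-1, against 486 to 13408 (-5.91, SE 0.10). CEBPA, needed for granulocyte and monocyte progenitors, had 587, 790 and 505, against 2575 to 5473 (-2.58, SE 0.16). CEBPD, ID2, EGR1, KLF4 and GFI1 were also set apart lower. IKZF2, the lymphoid factor Helios, had 6456, 6532 and 7213 in KG-1, against 9.46 to 471 (6.30, SE 0.39). MYCN had 502, 608 and 449, against 0 to 15.9, and ZEB1 and RUNX3 were higher by 2.68 and 2.04. MYB and WT1, active in all 5 lines, had differences of -0.24 and -0.02.

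Dendritic cell genes were divided, with 3 of 17 tested set apart higher and 2 lower, against 7.02% and 7.28% of all genes. Of the 17, 2 passed the filter only through KG-1. CLEC9A, a receptor of cross-presenting dendritic cells, had 230, 285 and 172 in KG-1, against 0 to 8.79, and FSCN1, an actin bundler, had 2194, 2702 and 2112, against 8.60 to 1629. The homing receptor CCR7 had 64.4, 108 and 72.4, against 0 to 7.41. BATF3, a factor of the same dendritic cells as CLEC9A, had 24.4, 28.9 and 28.7, against 182 to 682. Of 15 tested markers of endothelium, epithelium and fibroblasts 2 were set apart higher, TIE1 and KDR, and 0 lower, but 8 were called lower and 4 higher (26.4% and 26.6% of all genes), and the median was -1.36. TIE1 had 808, 712 and 819 in KG-1, against 3.61 to 118. The whole list summed to 4599 to 5169 in KG-1 and to 2800 to 12060 elsewhere.

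**Figure D3:**
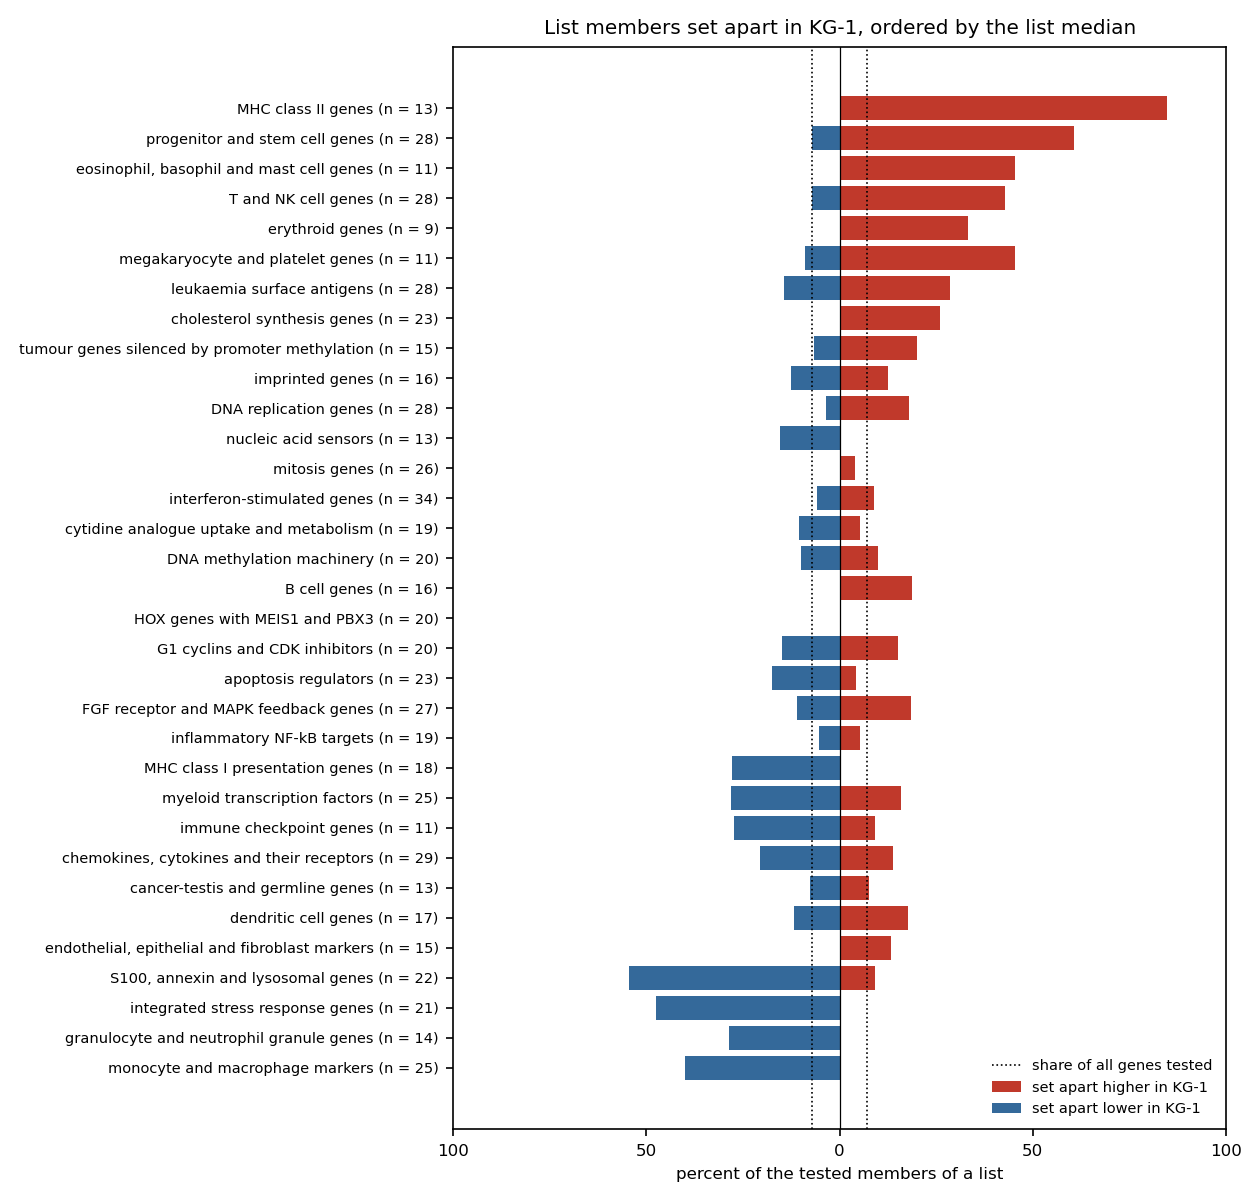
Share of the tested members of 33 gene lists that was set apart higher or lower in KG-1, ordered by the median log2 difference; dotted lines give the shares among all 20217 genes (7.02% higher, 7.28% lower). The MHC class II list has 11 of 13 set apart higher, and the integrated stress response list has 10 of 21 set apart lower.

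MHC class II genes, which present peptides to CD4 T cells, were the list with the largest median, 5.46 on the log2 scale. All 13 were tested, 11 were set apart higher (7.02% of all genes) and 0 lower. Of the 13, 2 passed the filter only through KG-1. CIITA, the coactivator that switches the class II promoters on, had 3602, 3364 and 3384 in KG-1, against 19.6 to 361 (4.81, SE 0.44). HLA-DRA had 2182, 2343 and 2547, against 2.86 to 103 (5.97, SE 0.29), and HLA-DPA1 had 2164, 2246 and 1920, against 3.74 to 86.6 (6.89, SE 0.26). CD74, the invariant chain, was present in every line, with 3992, 4445 and 3440 in KG-1, against 400 to 2120 (1.85, SE 0.11). The peptide editors HLA-DMA and HLA-DMB had 345, 352 and 359 and 200, 253 and 215 in KG-1, against 6.71 to 35.1 and 0 to 14.9. HLA-DQA1 was called higher by 2.64 without being set apart, and HLA-DOB was called lower, with 3.49, 0 and 1.59 in KG-1, against 0 to 80.5. The beta chains HLA-DRB1, HLA-DRB5, HLA-DQB1 and HLA-DPB1 and the chain HLA-DOA were set apart higher too, by 4.51 to 7.03. Genes of this region differ between people and have near-identical copies, so the values of single DR, DQ and DP genes are uncertain.

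Class II promoters carry a conserved module that includes a Y box, ATTGG on the strand read or CCAAT on its complement. Of 11 listed class II genes with a promoter in the RefSeq table, 10 held ATTGG on either strand (90.9%), against 35.7% of all 27305 promoters. HLA-DOB, called lower in KG-1, and HLA-DQA1, not set apart, were among the 10. The letters also occurred in 8 of 14 promoters of class I presentation genes (57.1%), HLA-B and HLA-C included. A match of these letters says nothing of binding. CD74, HLA-DMA and HLA-DRB1 are shown, with the matches in capitals, in the window and build given above.
CD74 (chr5:150412861-150413160, minus strand): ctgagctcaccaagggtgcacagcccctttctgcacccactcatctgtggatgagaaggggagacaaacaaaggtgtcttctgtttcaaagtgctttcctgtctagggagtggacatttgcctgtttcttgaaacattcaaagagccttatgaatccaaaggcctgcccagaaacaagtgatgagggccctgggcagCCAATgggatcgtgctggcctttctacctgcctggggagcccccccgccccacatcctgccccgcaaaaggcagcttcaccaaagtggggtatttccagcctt
HLA-DMA (chr6:32953048-32953347, minus strand): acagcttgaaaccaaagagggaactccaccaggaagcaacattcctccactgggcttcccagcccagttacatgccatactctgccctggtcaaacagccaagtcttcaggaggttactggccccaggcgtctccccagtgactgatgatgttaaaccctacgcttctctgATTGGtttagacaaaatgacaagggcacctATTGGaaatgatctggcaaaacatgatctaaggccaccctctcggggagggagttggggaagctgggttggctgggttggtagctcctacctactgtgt
HLA-DRB1 (chr6:32589799-32590098, minus strand): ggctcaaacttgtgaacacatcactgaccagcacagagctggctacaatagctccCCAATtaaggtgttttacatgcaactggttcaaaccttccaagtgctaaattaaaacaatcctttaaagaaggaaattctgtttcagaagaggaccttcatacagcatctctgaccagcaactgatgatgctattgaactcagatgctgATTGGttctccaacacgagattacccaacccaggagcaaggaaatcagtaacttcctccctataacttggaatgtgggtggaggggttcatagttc
These 3 windows held 3, 3 and 1 CpG dinucleotides.

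Class I genes did not follow class II. Of 18 tested genes of class I presentation 5 were set apart lower (7.28% of all genes) and 0 higher (7.02%), with a median of -0.54. HLA-B had 1220, 752 and 979, against 4465 to 30751 (-3.67, SE 0.11), and HLA-C had 900, 808 and 770, against 956 to 11666 (-2.44, SE 0.15). HLA-E and the proteasome subunit PSMB10 were lower by 1.06 and 0.88. The light chain B2M had 6356, 6283 and 7698, against 5005 to 25027, and was not set apart, and the transporter gene TAP1 had a difference of -0.14 that was not called. The HLA-B and HLA-C values carry the same doubt about alleles and copies as the class II values.

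Surface antigens used in diagnosis stood on both sides. Of 28 tested 8 were set apart higher and 4 lower, against 7.02% and 7.28% of all genes, and 2 of the 28 passed the filter only through KG-1. The median was 0.88, and 0.39 among genes with a mean of at least 50. CD38, an ectoenzyme lost from the most primitive normal progenitors, had 5190, 4653 and 5054 in KG-1, against 80.9 to 1030 (4.11, SE 0.11). ANPEP, the gene of CD13, had 1743, 1185 and 1273, against 0.97 to 427. CD52 had 422, 419 and 383, against 0 to 32.3. ITGA4, CD244 and SLAMF6 were also set apart higher. CD33 had 570, 590 and 609, against 582 to 2346 (-1.01, SE 0.08), and was called without being set apart. SIRPA, the receptor for CD47, had 46.5, 23.5 and 78.2, against 566 to 1654 (-4.51, SE 0.23), and FUT4 was set apart lower too. Of 11 tested checkpoint genes the ligand TNFSF4 was set apart higher, with 943, 755 and 859 in KG-1, against 4.25 to 38.0. ICOSLG, TNFSF9 and LGALS9 were set apart lower, by 4.58, 5.41 and 1.24. The shares of all genes are again 7.02% higher and 7.28% lower, and 1 of the 11 passed the filter only through KG-1.

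Of 23 tested apoptosis genes 1 was set apart higher and 4 lower, against 7.02% and 7.28% of all genes. The survival genes MCL1 and BCL2 were both lower. MCL1 had 2225, 2055 and 2042 in KG-1, against 3904 to 5429 (-1.23, SE 0.06), and BCL2 had 2602, 2222 and 2831, against 3115 to 10400 (-1.18, SE 0.11). BCL2L11, the gene of BIM, had 89.5, 436 and 163, against 460 to 3343. BBC3, the gene of the killer protein PUMA, had 21.5, 11.6 and 9.23, against 121 to 661 (-4.00, SE 0.20). The initiator caspase gene CASP8 was higher, with 2404, 2052 and 1749, against 477 to 1515.

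Cell cycle genes were examined by phase. Of 20 tested G1 cyclins and kinase inhibitors 3 were set apart higher and 3 lower, against 7.02% and 7.28% of all genes. Their median was -0.18, and it was 0.20 against MOLM-13 and SKM-1 only. CDKN1A, the cyclin kinase inhibitor p21 (chr6:36676460-36687339), had 14.5, 6.15 and 13.1 in KG-1, against 344 to 3537 (-6.58, SE 0.17, limma adjusted p = 4.84e-12). The difference from SKM-1 was -4.97, and those from MOLM-13, MOLM-14 and OCI-AML3 were -8.20, -8.11 and -5.05. CCND1, cyclin D1, had 2.70, 5.95 and 4.27 in KG-1, against 49.5 to 1145 (-5.98, SE 0.18), and CCND3 was lower by 1.27. CCND2 followed another division, with 10526, 9152 and 13311 in KG-1, against 9671 to 13323 in MOLM-13 and MOLM-14 and 31.3 to 143 in OCI-AML3 and SKM-1. CDK6 had 31657, 27735 and 37025, against 2808 to 21672 (1.49, SE 0.10), and E2F2 and CCNE2 were higher by 2.38 and 1.25. Of 28 tested replication genes 15 were called higher (26.6% of all genes), 5 set apart higher (7.02%) and 1 lower (7.28%). The helicase subunits parted: MCM4 on chromosome 8 had 40478, 40591 and 45153, against 14200 to 25168, and MCM7 on chromosome 7 had 2707, 2801 and 2505, against 4578 to 7389. Of 26 tested mitosis genes 1, DLGAP5, was set apart, and the median was 0.10. Scaling libraries by a trimmed mean moved that median to -0.03, so its sign is not fixed.

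FGFR1OP2, a partner in the fusion that KG-1 carries, had 3313, 3435 and 2718 in KG-1, against 647 to 1334 (1.76, SE 0.13), and was set apart higher. FGFR1 had 657, 1388 and 747, against 17.9 to 1347. It did not set KG-1 apart, since MOLM-14 had 834 to 1347 and the difference from it was -0.29, which was not called. Counts per gene do not show which reads came from the fusion. Feedback genes of the MAPK pathway went both ways. Of 27 tested in the list 5 were set apart higher and 3 lower, against 7.02% and 7.28% of all genes. Of the 27, 2 passed the filter only through KG-1. The phosphatase genes DUSP6 and DUSP4 had 1158, 1238 and 918 and 362, 361 and 331 in KG-1, against 12.7 to 736 and 0 to 134. SPRY1 had 554, 567 and 522, against 6.63 to 189, while its relative SPRY2 had 130, 74.2 and 152, against 249 to 848. FGFR2 had 171, 51.5 and 169, against 0 to 25.5.

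Because the study treated these lines with decitabine, genes of DNA methylation and of cytidine handling were examined in the untreated cells. Of 20 tested methylation genes 2 were set apart higher and 2 lower, near the shares of 7.02% and 7.28% of all genes. DNMT3B, a de novo methyltransferase, had 3876, 4327 and 3518 in KG-1, against 256 to 613 (3.25, SE 0.12, limma adjusted p = 1.17e-10). DNMT3A, the other one, had 631, 337 and 574, against 833 to 2525 (-1.41, SE 0.16). TET1, which oxidises methylcytosine, had 629, 737 and 684, against 43.3 to 266 (2.47, SE 0.18), and TET3 was lower by 0.45. DNMT1, the maintenance enzyme that decitabine traps, had 3741, 7528 and 3992, against 3715 to 9881 (-0.13, SE 0.18), and was not called, with its highest KG-1 value in the shallow library.

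Of 19 tested genes for uptake and metabolism of cytidine analogues, ABCB1 was set apart higher and 2 genes lower. ABCB1, given above among the highest genes, passed the filter only through KG-1. The shares of all genes were 7.02% and 7.28%. SAMHD1, which cleaves deoxynucleotide triphosphates, had 436, 316 and 450 in KG-1, against 2055 to 14171 (-3.79, SE 0.12). DCTD, deoxycytidylate deaminase, had 592, 593 and 672, against 823 to 1306. DCK, the kinase that activates decitabine, had 2329, 1994 and 2842, against 1126 to 2289 (0.65, SE 0.10), and was not set apart from SKM-1. CDA, the deaminase that inactivates it, had 1.07, 0 and 0.579 in KG-1, and was also near 0 in MOLM-13 and MOLM-14, from which KG-1 differed by -0.48 and -0.40 without a call. The nucleoside transporter SLC29A1 did not differ by a called amount (0.03, SE 0.08).

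Genes often silenced by methylation in tumours showed no common direction. Of 15 tested 3 were set apart higher and 1 lower, against 7.02% and 7.28% of all genes. GSTP1, a glutathione transferase, had 7886, 6944 and 4366 in KG-1, against 168 to 2105 (3.02, SE 0.32), HIC1 had 440, 363 and 273, against 5.54 to 199, and RASSF1 was higher by 0.98. PYCARD, the inflammasome adaptor ASC, had 363, 389 and 224, against 915 to 2262 (-2.07, SE 0.21). Among imprinted genes, PEG3 had 624, 655 and 690, against 0 to 33.6, and PLAGL1 was higher by 1.46, while PHLDA2 and KCNQ1OT1 were lower. Of 42 listed cancer-testis and germline genes 13 were tested, with TDRD9 set apart higher and SOHLH2 lower (7.02% and 7.28% of all genes). Of the 13, 2 passed the filter only through KG-1.

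Promoters of the genes set apart higher were poorer in CpG. The median ratio of observed to expected CpG in the 300-base window was 0.769 over 933 genes set apart higher, 0.813 over 1051 set apart lower and 0.824 over 10173 others. The ratio was below 0.6 at 33% of the genes set apart higher and at 19.8% of those set apart lower, against 22.3% of the others. The sets were not selected alike. A gene set apart lower had to exceed KG-1 in each other line, while a gene set apart higher needed to be present only in KG-1. Of all genes set apart higher 346 passed the filter only through KG-1, against 0 of those set apart lower. Whether this contributed to the CpG ratios was not tested. No methylation was measured in these libraries.

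Genes of the integrated stress response, which ATF4 drives when amino acids are short, were low as a list. Of 21 tested 20 were called lower (26.4% of all genes), 10 set apart lower (7.28%) and 0 higher, with a median of -1.82. ASNS, asparagine synthetase (chr7:97852118-97872542), had 213, 209 and 302 in KG-1, against 960 to 7172 (-3.67, SE 0.12, limma adjusted p = 4.21e-11). The serine pathway gene PSAT1 had 950, 853 and 1071, against 1322 to 7663, and SHMT2, which passes a carbon from serine to folate, had 870, 1081 and 884, against 1903 to 6880. CHAC1, which degrades glutathione, had 32.0, 18.7 and 20.7, against 48.1 to 250, and DDIT3, the gene of CHOP, had 38.1, 49.2 and 34.6, against 57.3 to 613. VLDLR, TRIB3, ADM2, ATF3 and SESN2 completed the set. ATF4 itself had 2808, 3427 and 3133, against 3392 to 8350 (-0.91, SE 0.06). NUPR1 was the gene called higher. ASNS lies on chromosome 7.

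The promoters of ASNS and CHAC1 are shown because both hold TGATGNAA, the composite element that ATF4 and CEBP factors read, in capitals on either strand.
ASNS (chr7:97872359-97872658, minus strand): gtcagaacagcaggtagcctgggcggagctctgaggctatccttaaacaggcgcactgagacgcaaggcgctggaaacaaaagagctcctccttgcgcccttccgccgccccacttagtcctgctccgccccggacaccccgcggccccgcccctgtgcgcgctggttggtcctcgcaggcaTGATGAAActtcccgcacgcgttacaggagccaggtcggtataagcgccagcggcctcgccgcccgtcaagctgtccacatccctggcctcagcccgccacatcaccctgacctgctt
CHAC1 (chr15:40953221-40953520, plus strand): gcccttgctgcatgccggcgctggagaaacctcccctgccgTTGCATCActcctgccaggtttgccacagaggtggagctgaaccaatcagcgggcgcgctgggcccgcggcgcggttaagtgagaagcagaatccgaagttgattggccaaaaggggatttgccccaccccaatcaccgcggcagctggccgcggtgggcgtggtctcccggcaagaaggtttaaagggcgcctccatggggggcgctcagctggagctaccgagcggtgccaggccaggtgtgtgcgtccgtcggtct
This motif occurred in 5 of 18 promoters of the list (27.8%) and in 3.67% of all promoters. In CHAC1 the match lies on the other strand.

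Of 23 tested genes of sterol synthesis 13 were called higher (26.6% of all genes), 6 set apart higher (7.02%) and 0 lower, at a median of 0.54. SQLE, squalene epoxidase, had 11350, 9891 and 11756 in KG-1, against 817 to 2753 (2.72, SE 0.10), and it lies on chromosome 8. HMGCS1, which makes the precursor of mevalonate, had 3552, 2635 and 3764, against 682 to 2432. IDI1, DHCR7 and HSD17B7 were higher by 1.55, 1.26 and 0.90.

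S100, annexin and lysosomal genes, which rise as myeloid cells mature, were mostly lower in KG-1: of 22 tested, 12 were set apart lower (7.28% of all genes) and 2 higher (7.02%), with a median of -1.51. ANXA2 had 28.9, 9.90 and 15.2 in KG-1, against 476 to 4238 (-6.01, SE 0.20), ANXA5 had 47.1, 69.3 and 54.4, against 652 to 2914, and S100A6 had 89.3, 98.4 and 68.9, against 1024 to 2945. The annexin ANXA1 was the opposite, with 6300, 6622 and 6570 in KG-1, against 136 to 423 (4.53, SE 0.10). The protease gene CTSD was also higher, with 1513, 1653 and 1713, against 283 to 1049, while CTSL, CTSZ and CTSS were lower.

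Interferon genes gave no common direction. Of 34 tested 15 were called higher and 10 lower (26.6% and 26.4% of all genes), with 3 and 2 set apart (7.02% and 7.28%). RSAD2, viperin, had 3687, 3444 and 3461 in KG-1, against 59.1 to 279 (5.21, SE 0.19). Its neighbour CMPK2 had 6364, 5623 and 7087, against 167 to 1428 (3.99, SE 0.09). IFITM1 had 362, 395 and 207, against 0 to 21.5, while MX2 and USP18 were lower by 3.58 and 3.16. At IFI16 and MX1 it was OCI-AML3 that stood high among the other lines. IFI16, a DNA sensor, had 8308, 8404 and 9656 in KG-1, against 8680 to 8956 in OCI-AML3 and 184 to 1301 in the rest. MX1, by contrast, had 57.4, 52.0 and 46.1 in KG-1, against 4766 to 5152 in OCI-AML3 and 42.1 to 274 elsewhere.

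Inflammatory and chemokine genes were mixed. TNF had 3.01, 0 and 1.78 in KG-1, against 3.58 to 417, with the lowest values in SKM-1, and CXCL2 had 214, 219 and 195, against 0 to 27.1. CXCR4, the receptor that holds progenitors in the marrow, had 184, 139 and 199, against 611 to 1790 (-2.42, SE 0.11). IL32 had 586, 553 and 643, against 0 to 20.4 (7.56, SE 0.46), and TNFSF10, the gene of TRAIL, had 1122, 881 and 1050, against 58.8 to 420. CCL5, CCR1, IL4R, IL1RN and TNFRSF1B were set apart lower.

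Differences gathered along some chromosomes. KG-1 lay lower over chromosome 5 (median log2 difference -0.50 over 634 protein-coding genes, 137 set apart lower and 45 higher) and higher over chromosome 8 (0.58 over 484 genes, 104 higher and 30 lower). The long arm of chromosome 5 held most of it. From 100 to 180 Mb the median was -0.70 over 364 genes, with 105 set apart lower and 24 higher. It was -0.87 against SKM-1, -0.69 against OCI-AML3, -0.60 against MOLM-13 and -0.48 against MOLM-14. The last part of this stretch went the other way. From 170 to 180 Mb the median was 0.24 over 80 genes, with 16 set apart higher and 10 lower. On chromosome 7 from 100 to 140 Mb the median was -0.89 over 196 genes, with 69 set apart lower and 7 higher. From 80 to 90 Mb on the same chromosome it was 1.28 over 18 genes. On chromosome 4 from 150 to 190 Mb the median was -0.79 over 99 genes. On chromosome 8 from 40 to 150 Mb it was 0.74 over 331 genes, with 89 set apart higher and 13 lower. The difference there was 0.85 to 0.97 against 3 lines and 0.23 against MOLM-13. No copy number was measured, and the stretches were chosen after their values had been seen.

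**Figure D4:**
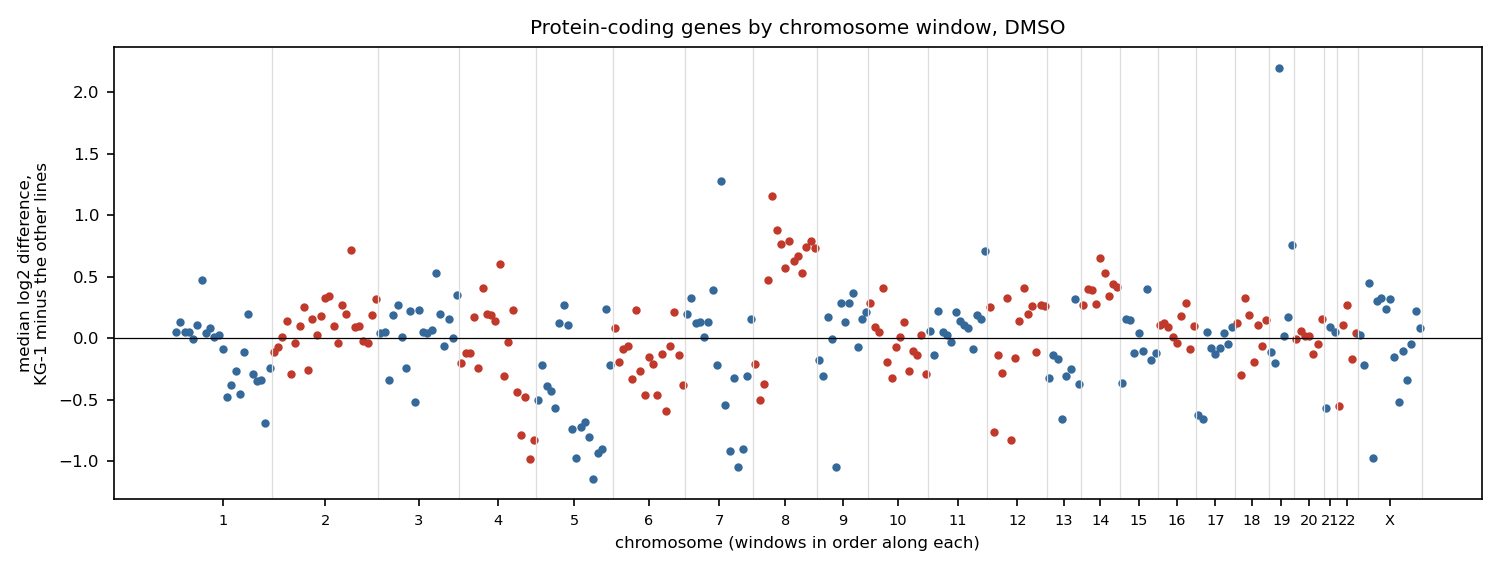
Median log2 difference, KG-1 minus the other lines, in windows of 10 Mb with at least 10 tested protein-coding genes, ordered along the chromosomes, with colours alternating between neighbouring chromosomes. The lowest window, on chromosome 5 from 140 to 150 Mb, lies at -1.14 and the highest, on chromosome 19 from 20 to 30 Mb, at 2.20.

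Of 294 windows of 10 Mb, the lowest lay on chromosome 5 from 140 to 150 Mb, with a median of -1.14 over 75 genes, 29 set apart lower and 2 higher. NR3C1, the glucocorticoid receptor (chr5:143277931-143435512), had 788, 893 and 936 in KG-1, against 1231 to 2533 (-1.07, SE 0.08). The deacetylase HDAC3 had 495, 722 and 576, against 707 to 1367. The growth factor HBEGF had 10.3, 18.6 and 18.5, against 100 to 357. NDFIP1 and JAKMIP2 were the 2 genes set apart higher.

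The highest window lay on chromosome 19 from 20 to 30 Mb, a cluster of zinc finger genes of the KRAB type, with a median of 2.20 over 35 genes. Of these, 13 were set apart higher and 0 lower, and all 13 carry ZNF names. ZNF626 had 927, 1131 and 1058 in KG-1, against 0.875 to 12.6 (7.76, SE 0.38). ZNF681 had 2715, 2206 and 2321, against 0 to 646, and ZNF91 had 2777, 1922 and 2233, against 6.80 to 1265. The median over the window was 3.32 and 3.14 against MOLM-13 and MOLM-14 and 0.88 and 0.85 against OCI-AML3 and SKM-1. Genes with ZNF names, counted after these values had been seen, were also counted over the rest of chromosome 19. Of 208 tested outside the window 43 were set apart higher and 1 lower, with a median of 0.91, against 44 and 75 of 881 other coding genes of the chromosome. Of 221 on other chromosomes 25 were higher and 14 lower. These genes share long similar stretches, so reads of 50 bp may have been split between them.

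The decitabine libraries of the same lines gave a second measurement of the differences between lines, in cells grown with the drug and counted with the same tool, so it is not independent of the lines. In these libraries 5214 genes (25.8%) were called higher in KG-1 and 5114 (25.3%) lower, and 1372 (6.79%) and 1466 (7.25%) were set apart. Of the 1420 genes set apart higher in DMSO, 1415 had the same sign with decitabine, 1364 (96.1%) were called and 978 (68.9%) were set apart again. Of the 1471 set apart lower, 1464 had the same sign, 1399 (95.1%) were called and 1029 (70%) were set apart again. The median difference of the higher genes was 2.00 with decitabine and 2.39 in DMSO, and that of the lower genes was -1.57 with decitabine and -1.89 in DMSO.

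**Figure D5:**
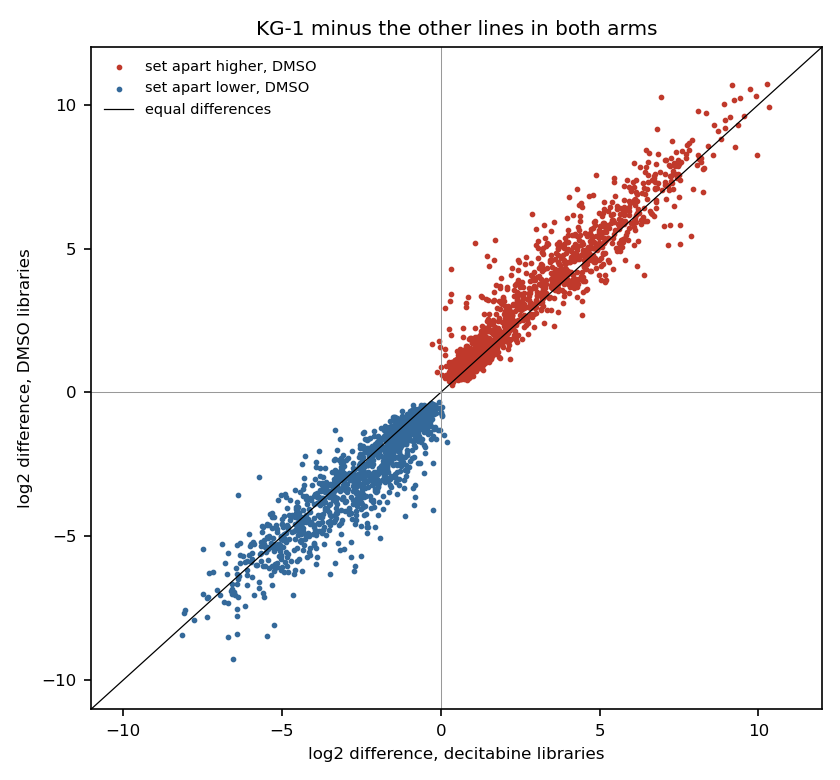
Log2 difference, KG-1 minus the other lines, in the decitabine libraries (horizontal axis) and in the DMSO libraries (vertical axis) for the 2891 genes set apart in DMSO. All but 12 genes have the same sign in both.

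List medians were set side by side in both sets of libraries. The MHC class II median was 4.12 with decitabine and 5.46 in DMSO, and the progenitor median was 3.29 with decitabine and 3.83 in DMSO. The integrated stress response median was -0.66 with decitabine and -1.82 in DMSO, and 5 of its genes were set apart lower with decitabine against 10 in DMSO. Mitosis genes had a median of 0.53 with decitabine and 0.10 in DMSO, and 21 of 26 were called higher with decitabine against 10 in DMSO. Some medians near 0 changed sign: the FGF receptor and MAPK list was at 0.31 with decitabine and -0.27 in DMSO, and that of nucleic acid sensors at -0.27 with decitabine and 0.13 in DMSO. Interferon genes were at -0.11 with decitabine and 0.10 in DMSO, and methylation genes at 0.13 with decitabine and -0.05 in DMSO. These sets of libraries share no library, but the difference between their counts was not tested.

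Single genes narrowed their gap from either side. At CACNA2D4, a calcium channel subunit, KG-1 itself moved, with 148, 232 and 117 under decitabine and 7.88, 17.2 and 15.9 in DMSO, against 482 to 1688 in the decitabine libraries of the other lines and 249 to 1599 in their DMSO libraries. RASSF4 had 205, 265 and 184 in KG-1 under decitabine and 26.1, 11.2 and 59.3 in DMSO. At PTPRCAP the other lines held 0 to 75.4 under decitabine and 0 to 20.1 in DMSO, with the highest decitabine values in SKM-1, and KG-1 held 1390, 1878 and 1432 under decitabine and 2080, 2496 and 1924 in DMSO. IL32 had 10.1 to 86.2 in the other lines under decitabine and 0 to 20.4 in DMSO. The gene PALM2AKAP2 changed sign and was called in both sets, with 3510, 2982 and 3235 in KG-1 under decitabine and 1095, 1150 and 702 in DMSO, and log2 differences from the other lines of 0.20 and -1.71.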

How the data were processed

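RNA was measured in 30 libraries with a column in the deposited table, 3 per line and treatment. The authors deposited a signal of estimated counts divided by DESeq2 normalisation factors, as the name they gave the table says; it is neither logged nor scaled by gene length. Per the submitters' processing notes, the tools were Salmon 1.2.1, STAR, featureCounts, DESeq2 and limma on hg38, with no role or order given. Whether reads were counted by strand is not given in the sources used here, so antisense and overlapping genes are uncertain, as are near-identical copies. A further 12 value columns belong to a line outside these groups and were not used, and 12 libraries labelled THP-1 or OCI-AML2 were not analysed here. MOLM-14 is named by the library labels and not by the design text.

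Of 60240 genes, 20217 reached 10 in 3 or more of the 15 DMSO libraries. Differences and folds were computed from the deposited values as log2(value + 1) with limma 3.58.1 in R 4.3.3 (trend and robust moderation, statmod 1.5.0). The fit held 5 line means and left 10 residual degrees of freedom, and p-values were Benjamini-Hochberg adjusted over all genes tested. The decitabine libraries were fitted on their own in the same way. The depth was read from the steps of low values. Between 45.2 and 68.5% of low values were whole reads within 0.02, so no count model was run. The procedure was tested on simulated data.

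Named genes were the 15 highest and 15 lowest protein-coding genes set apart, with a value of at least 100 in every library of the higher side, the 5 highest and 5 lowest long noncoding genes by the same rule, list members set apart or defining for their list, and genes of a named window. MPO, KIT, MEIS1, CD109, ITGAM, S100A9 and CSF1R and further list members that were not set apart, the ZNF-named genes, the windows and the stretches of chromosomes, and the genes whose gap narrowed with decitabine were named after their values had been seen. The comparison and the 34 gene lists (782 symbols, 648 of them tested) were chosen with earlier results of these data known. Alternatives covered the filter, the pseudocount, the scaling, the moderation, the lines compared and each library left out. Some genes and 1 list are not reported here.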

Additional observations from a re-analysis of the deposited data

Results flagged for a closer look

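The difference between KG-1 and the other lines was compared between the decitabine and the DMSO libraries in a limma fit of all 30 libraries, which called 625 of 20217 genes (3.09%). Among the 40 coding and long noncoding genes named by rank 6 (15%) were called. KG-1 was lower by less with decitabine at SLC7A2, CSTA, ALDH1L2 and CRNDE. SLC7A2 stood at -6.54 with decitabine and -9.26 in DMSO, a difference between the treatments of 2.72 (SE 0.39, limma adjusted p = 0.000149). CSTA stood at -5.24 with decitabine and -8.08 in DMSO, a difference of 2.84 (SE 0.46, limma adjusted p = 0.000527), and the KG-1 values were 24.2, 25.9 and 23.7 with decitabine and 4.02, 0 and 8.35 in DMSO. ALDH1L2 differed by 3.00 (SE 0.81, limma adjusted p = 0.0397) and CRNDE by 1.07 (SE 0.21, limma adjusted p = 0.00357). At ALDH1L2 KG-1 had 21.7, 66.4 and 25.7 with decitabine and 20.6, 0 and 43.0 in DMSO. The other lines held 271 to 4130 with decitabine and 1023 to 10693 in DMSO. At SLC7A2, CSTA and ALDH1L2 the shallow KG-1 DMSO library was listed at 0, which enlarges the DMSO difference and makes the shift uncertain. NYNRIN was higher by less with decitabine, at 6.80 with decitabine and 9.15 in DMSO, a difference of -2.36 (SE 0.58, limma adjusted p = 0.0227). These genes had been chosen for the size of their difference in DMSO.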

How the results depend on the processing

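The 40 coding and long noncoding genes named by rank kept their direction and their call in all 1360 values computed under the alternatives. They had been picked from these libraries for large differences among genes set apart. That choice made the outcome likely, and it says little of other genes. The counts of genes set apart depended mainly on which lines were compared. Against MOLM-14 and OCI-AML3 only, 2861 genes were set apart higher and 2620 lower, and against MOLM-13 and SKM-1 only 3215 and 3085, where fewer lines have to be passed. MPO turned to 1.06 against MOLM-14 and OCI-AML3 only and to 0.36 against the lines other than SKM-1, neither of them called, and S100A9 lost its call in both, at -0.35 and -0.18. The MPO call was also lost with no filter, with no trend or robust moderation, without any 1 of the KG-1 libraries and without MOLM-13 replicate 3, at adjusted p of 0.05 to 0.105. Leaving out each library in turn gave 1279 to 1620 genes set apart higher, 1329 to 1579 lower, 4737 to 5823 called higher and 4743 to 5802 called lower. Without the 3 shallow libraries the counts set apart were 1824 and 1768. Scaling by a trimmed mean gave 1129 and 1585, with 43.1% of calls higher against 50.3%, and moved the median of all genes to -0.099. The medians of the HOX, T and NK, B cell, interferon, nucleic acid sensor, NF-kB, FGF receptor, DNA methylation, cytidine analogue, G1, mitosis, silenced and imprinted lists changed sign under at least 1 alternative, among them some with another set of lines.

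Replicate numbers recur across lines, but deviations of same-numbered libraries correlated at -0.044 to 0.146, so the numbers were not taken to pair them. With the replicate block, 1449 genes were set apart higher and 1510 lower. Depth limits low genes most: 1 read was worth up to 10.1 in the shallowest library.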
